A study of Mus musculus with 2 samples.

Results

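The genes of the core circadian clock loop were followed in liver and adipose tissue of mice kept on a normal or a high-fat diet. They are Arntl, Clock, Npas2, Per1, Per2, Per3, Cry1, Cry2, Nr1d1 and Nr1d2, found as the probes whose transcript accession maps to 1 of these symbols, and they make up 10 of the 20886 genes matched on the arrays. Each had 1 probe, printed as a single spot, whose target the files name by transcript (NM_007489 for Arntl, NM_009963 for Cry2, NM_145434 for Nr1d1 and NM_011584 for Nr1d2). In the liver, the high-fat pool had 3.87-fold less Arntl signal than the normal-diet pool, and more Cry2 (2.12-fold), Nr1d1 (2.16-fold) and Nr1d2 (2.05-fold). Per2 lay just short of 2-fold at 1.99-fold higher, and Per3 was well above background in the high-fat pool alone. None of the liver ratios was 2-fold apart when local backgrounds that the scanner software marked as outliers were kept as deposited. In adipose tissue no member was 2-fold apart.

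The animals were wild-type C57BL/6J males under a 12-h light cycle, which for 4 weeks ate either the normal diet (ND) or the high-fat diet (HFD). Per the labels, total RNA of 10 livers and of 10 adipose tissues was combined into ND and HFD pools. Each tissue was measured on 1 two-colour Agilent array with the ND pool in Cy3 (green) and the HFD pool in Cy5 (red), so that 2 arrays hold 4 pools. No array was repeated and the dyes were not swapped. The spread between animals is not seen, no p-value was computed, and diet and dye cannot be told apart. The fat depot, the make-up of the diets and the hour of sampling of each group are not given in the sources used here, and the part of sampling hour in the values was not tested. The stated errors are those the scanner software gave its own log ratio of a single spot. They are set here beside ratios computed otherwise from the same spots, whose own error was not measured. A gene at least 2-fold apart is described as higher or lower.

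The mammalian clock is a feedback loop of transcription. ARNTL (also BMAL1) pairs with CLOCK or its relative NPAS2 and switches on the Per, Cry and Nr1d genes through E-box sequences. PER and CRY proteins block that pair, while NR1D1 and NR1D2 (REV-ERB alpha and beta) repress Arntl, which puts the Arntl transcript out of phase with the Nr1d and Per transcripts. The loop runs in the cells of liver and fat, where it times genes of lipid, glucose and bile acid metabolism and responds to feeding time.

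The stretches just upstream of the members' transcription starts were taken from RefSeq (build GRCm38.p6), which held 9 of the 10 genes. The first 4 sequences are shown because these members had more liver signal in the HFD pool. Each is the 250 bases before a start, read 5′ to 3′ on the gene's strand. Capitals mark an E-box variant (CACGTT, read on either strand) or a D-box (TTATGTAA), the site of the DBP, TEF and HLF factors.
Cry2 (chr2:92434070-92434319, minus strand): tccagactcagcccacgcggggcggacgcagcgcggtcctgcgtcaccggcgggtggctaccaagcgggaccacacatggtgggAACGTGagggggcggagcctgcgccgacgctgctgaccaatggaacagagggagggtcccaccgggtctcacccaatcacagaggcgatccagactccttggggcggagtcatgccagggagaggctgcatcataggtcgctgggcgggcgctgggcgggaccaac
Nr1d1 (chr11:98775378-98775627, minus strand): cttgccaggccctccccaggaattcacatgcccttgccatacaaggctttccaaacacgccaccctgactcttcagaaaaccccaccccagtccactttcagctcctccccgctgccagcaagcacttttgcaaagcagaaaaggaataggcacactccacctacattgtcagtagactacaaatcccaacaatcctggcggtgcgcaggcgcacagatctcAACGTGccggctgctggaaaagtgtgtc
Nr1d2 (chr14:18239107-18239356, minus strand): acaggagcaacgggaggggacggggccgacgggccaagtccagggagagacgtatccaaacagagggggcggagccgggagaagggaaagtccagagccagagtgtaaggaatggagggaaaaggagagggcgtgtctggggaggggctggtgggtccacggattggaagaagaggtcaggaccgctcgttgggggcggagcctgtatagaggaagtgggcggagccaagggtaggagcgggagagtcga
Per3 (chr4:151044666-151044915, minus strand): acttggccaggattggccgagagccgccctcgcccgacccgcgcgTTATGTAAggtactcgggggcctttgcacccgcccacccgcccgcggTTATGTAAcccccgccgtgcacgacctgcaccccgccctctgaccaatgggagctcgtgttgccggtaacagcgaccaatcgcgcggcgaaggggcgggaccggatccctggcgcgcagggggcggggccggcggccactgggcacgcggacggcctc
The promoter window, from 250 bases before to 50 after a start, held the E-box variant in Cry2 and Nr1d1 at positions -166 and -28 and the D-box in Per3 at -205 and -158, counted from -1 at the base before the start. Nr1d2 held no E-box, E-box variant or D-box. The canonical E-box CACGTG lay in Per1 at -166 and in Cry1 at -60, the latter with the variant at -79, and both genes had liver ratios near 0. These 30-base stretches carry them, with the motif in capitals.
Per1 (chr11:69098771-69098800, plus strand): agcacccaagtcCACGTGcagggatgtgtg
Cry1 (chr10:85185097-85185126, minus strand): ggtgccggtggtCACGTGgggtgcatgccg
Cry1 (chr10:85185116-85185145, minus strand): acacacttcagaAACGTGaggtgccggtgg
Of 32851 mouse promoters of this length, 7.15% held CACGTG, 4.68% CACGTT and 1.06% a D-box (TTATGTAA or TTACGTAA), so that each is found in many other promoters. The cAMP element TGACGTCA, the nuclear receptor core AGGTCA after 3 bases of A or T, and 2 such cores spaced by 2 bases were in none of the 9 members' windows, against 1.79%, 1.66% and 0.00913% of all promoters. Motifs were read on both strands. Arntl, the member that was lower in liver, held the letters AGTAGGTNA at 2 places around its starts, a search added after its sequence was seen and matched by 0.591% of promoters. These stretches show both, with the match in capitals.
Arntl (chr7:113207493-113207522, plus strand): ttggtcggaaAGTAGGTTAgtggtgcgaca
Arntl (chr7:113207529-113207558, plus strand): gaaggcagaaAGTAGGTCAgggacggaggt
The second contains the core AGGTCA, which 16.3% of all promoters and 4 of the 9 members' windows (Arntl, Clock, Per1 and Nr1d2) hold on either strand. A match describes the sequence and is not evidence of binding, and the arrays carry no measure of it.

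Both arrays gave usable values for most of these genes. Well above background in both channels were 13642 genes on the liver array and 14315 on the adipose array, with 8 of the 10 members in liver and all 10 in adipose. The red channel was the brighter by its median (raw signal 127 against 93 in liver, and 274 against 97 in adipose), so raw signals of the 2 channels compare only after normalization. The median scanner error was 0.21 on the log2 scale on each array, no spot was saturated, and no member spot was marked as an outlier or lay on a background marked as one. All 15 hepatocyte markers were above background in both liver pools and all 15 adipocyte markers in both adipose pools. The lists did not keep the tissues apart: 13 of 15 adipocyte markers (all but Lep and Plin1) were also above background in both liver pools, and all 15 hepatocyte markers in both adipose pools.

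In the liver, the activator Arntl stood furthest from equal. Its raw signal was 873 in the ND pool and 368 in the HFD pool, over local backgrounds of 29 and 39, so the usually brighter red channel was here the dimmer. After normalization its log2 level was 10.35 on ND and 8.40 on HFD, a log2 ratio (HFD over ND) of -1.95 with a scanner error of 0.30. It ranked 8 from the lowest among 13642 genes. Of 2016 genes in a window 1 log2 unit wide around its brightness, 2 were as low, itself included. Fewer cells of a type and less RNA per cell cannot be told apart in such tissue pools, here and for the values that follow.

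The partner of Arntl lay closer to equal. Clock, the acetyltransferase that binds DNA together with ARNTL, had raw signals of 652 on ND and 876 on HFD. Its log2 ratio was -0.39 with an error of 0.21, within 2 errors. The software's own ratio, to which that error belongs, was -0.47 and past 2 errors. Clock ranked 570 from the lowest among 13642 genes, and 84 of 1894 genes in such a window, itself included, were as low. Npas2, which can stand in for CLOCK, was not well above background in either pool (raw signals of 61 and 60.5), and no ratio was formed. The 2 measured activators thus lay below equal by unequal amounts: the ratio of Arntl minus that of Clock was -1.57 on the log2 scale, 4.30 times their combined scanner error of 0.36.

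**Figure D1:**
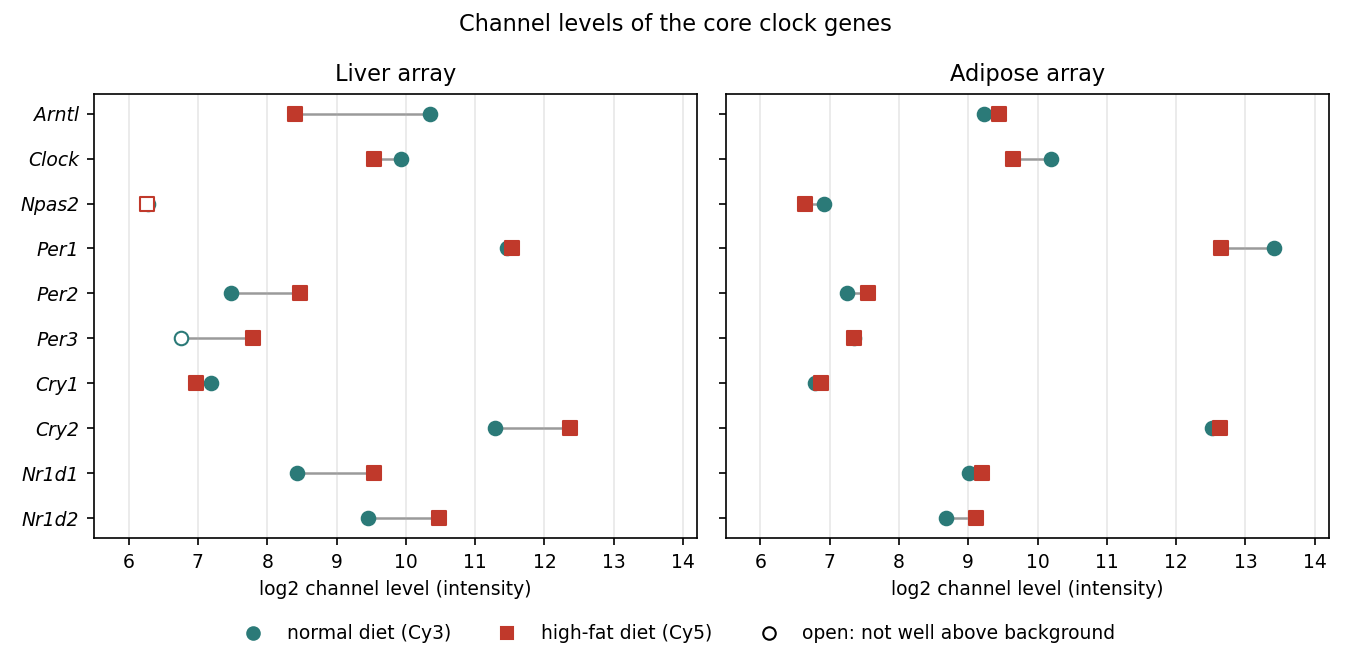
Normalized log2 channel level (x axis, intensity) of each core clock gene in the normal-diet pool (Cy3, circles) and the high-fat pool (Cy5, squares) of the liver array (left) and the adipose array (right), 1 pool per point. Open symbols were not well above background. The liver points of Arntl, Cry2, Nr1d1, Nr1d2, Per2 and Per3 lie apart, while in adipose the widest gap is that of Per1. Levels of different genes come from different probes and do not rank the genes.

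The period genes, whose proteins carry the repression of the ARNTL complex, split in liver. Per1 had raw signals of 2072 on ND and 4001 on HFD, and its log2 levels of 11.46 and 11.53 gave a ratio of 0.07 with an error of 0.20. Per2 had 110 and 351, log2 levels of 7.48 and 8.47, and a ratio of 0.99 with an error of 0.25. Per2 was the member nearest to the 2-fold line from below, ranked 70 from the highest, and lay above Per1 by 0.92 with a combined error of 0.32. Per3 had a raw signal of 63 on ND, not well above background, and of 200 on HFD, which was. Its HFD level was 2.06-fold above the ND probe's own level, a log2 difference of 1.05. The software's own log2 ratio for Per3 was 2.91 with an error of 0.37, so the size depends on the processing. The ND level is above the lowest level detected on that channel, but Per3 was not counted as measured.

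The cryptochromes, the other repressor subunits, differed from each other. Cry2 had raw signals of 1839 on ND and 7269 on HFD, log2 levels of 11.28 and 12.37, and a ratio of 1.09 with an error of 0.23. It ranked 51 from the highest, and 6 of 1062 genes in such a window, itself included, were as high. Cry1 had 97 and 107.5, both close to the detection limit, and a ratio of -0.22 with an error of 0.27. Cry2 thus exceeded Cry1 by 1.30, with a combined error of 0.35.

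The Nr1d nuclear receptors, the direct repressors of Arntl, were both higher on HFD. Nr1d1 had raw signals of 227.5 on ND and 834.5 on HFD, log2 levels of 8.43 and 9.54, and a ratio of 1.11 with an error of 0.24. Nr1d2 had 475 and 1741, log2 levels of 9.45 and 10.49, and a ratio of 1.03 with an error of 0.23. They ranked 46 and 58 from the highest of 13642 genes and differed from each other by 0.08 (Nr1d2 below Nr1d1), well inside their combined error of 0.33.

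Read by role, the measured Per and Nr1d genes in liver had a median log2 ratio of 1.01 and the measured activators one of -1.17, a gap of 2.18. It was 0.56 with local backgrounds as deposited and 1.42 with no filter on dim probes. At least 2-fold higher were 3 of the 8 measured members (Cry2, Nr1d1 and Nr1d2), where 0.491% of all measured liver genes were, and 1 of 8 was at least 2-fold lower (Arntl), where 0.579% were. Of the 8, 5 exceeded 2 times their own scanner error (these 4 and Per2), against 10.1% of all genes. With the software's own ratio, to which that error belongs, Clock (-0.47, error 0.21) and Cry1 (-0.55, error 0.27) also did. The share of all genes was not computed for that ratio. The members were chosen with earlier results of these data known, so these shares do not test them. The median of all genes was 0.01. Where each array was only centred on its median, with no loess curve, the median of all liver genes moved to 0.32 and the share of higher genes among those 2-fold apart went from 45.9% to 94.1%. Arntl was then at -1.58 and Clock at 0.01, and the members 2-fold apart were Arntl, Cry2, Nr1d1, Nr1d2 and Per2. Of all 13642 genes, 445 were then at least 2-fold higher and 28 lower.

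The 4 liver calls were lost where outlier local backgrounds were kept as deposited, though no member's own spot lay on such a background. They stood with no background subtraction (Arntl -2.04, Cry2 1.09, Nr1d1 1.11 and Nr1d2 1.05). On the liver array the deposited local background of some spots, marked by the software as outliers, reached 132254 in red, while none was above 90.5 in red on the adipose array. These were replaced by the array's median background. With all of them kept as deposited, no member was 2-fold apart: Arntl came to -0.62, Cry2 to 0.83, Nr1d2 to 0.44, Nr1d1 to 0.25 and Per2 to 0.10, and over the whole array 20 genes were 2-fold higher and 35 lower, against 67 and 79. Under the other 8 alternative computations of the ratio, Arntl lay between -2.35 and -1.58, and Cry2, Nr1d1 and Nr1d2 each stayed above 1 in every one. Per2 reached 2-fold in 4 of the 10 computations. With 1 spot per member, looser filters on dim probes and the choice of the brightest probe could not change a measured member's ratio. Those computations are therefore no check of it.

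**Figure D2:**
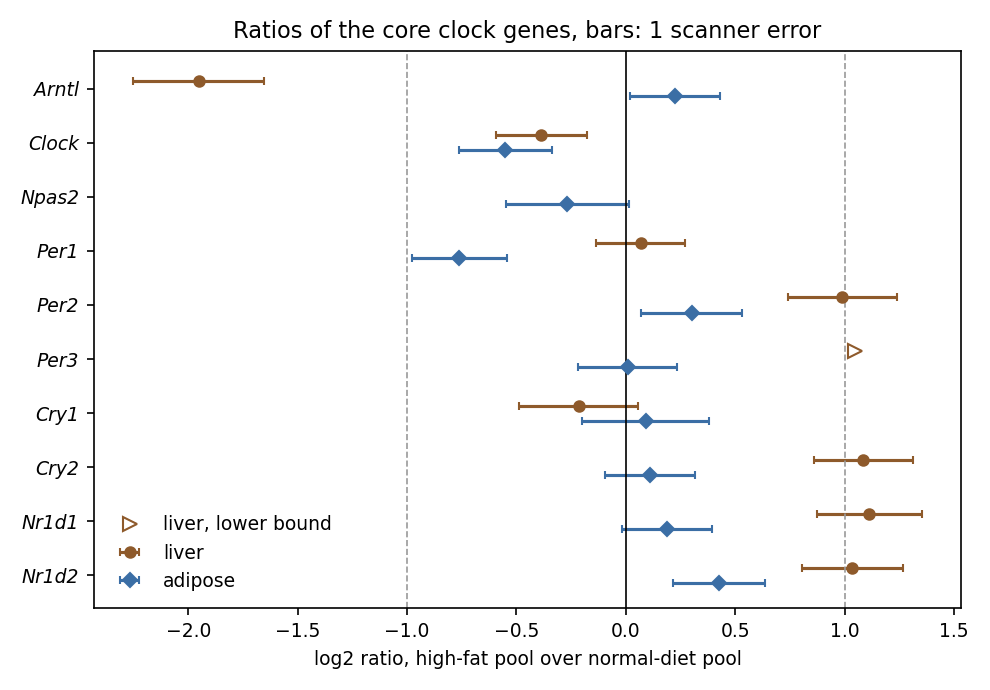
Log2 ratio of the high-fat over the normal-diet pool (x axis) for each core clock gene on the liver array (circles) and the adipose array (diamonds), with bars of 1 scanner error and dashed lines at 2-fold. Per3 in liver (open triangle, labelled a lower bound) is its HFD level over an ND level not well above background, and Npas2 in liver has no value. Arntl at -1.95 and Cry2, Nr1d1 and Nr1d2 at 1.03 to 1.11 in liver lie past the lines, and all 10 adipose values lie inside them.

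Skeletal muscle genes also differed between the liver pools: 9 of 12 measured were at least 2-fold lower on HFD, with a median of -1.45, and the summed level of the list went from 62671 to 22885. All 13 listed muscle genes were above background in the ND pool and all but Mylpf in the HFD pool. Hepatocyte markers had a median of 0.40 and a summed level of 1482912 on ND and 2111837 on HFD, and endothelial markers a median of 0.09. The part of muscle RNA in the clock values was not tested.

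In adipose tissue, the core clock genes lay close together. Arntl had raw signals of 306.5 on ND and 1702 on HFD, log2 levels of 9.23 and 9.45 and a ratio of 0.22 with an error of 0.21. Clock had 570 and 1933.5, levels of 10.19 and 9.64, and a ratio of -0.55 with an error of 0.21. Npas2, measurable here, had 88.5 and 165 and a ratio of -0.27 with an error of 0.28. The 3 activators thus did not move together, and Arntl, the lowest member in liver, was slightly above equal.

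Per1 was the adipose member furthest from equal. Its raw signals were 4169.5 on ND and 13892 on HFD, its log2 levels 13.40 and 12.64, and its ratio -0.76 with an error of 0.22. Per2 had 98.5 and 390.5 and a ratio of 0.30 with an error of 0.23, and Per3 had 106 and 330 and a ratio of 0.01 with an error of 0.22. Per1 was therefore the lower of the first pair by 1.06, with a combined error of 0.32, in the same order as in liver.

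The adipose cryptochromes and Nr1d receptors were near equal. Cry1 had raw signals of 76 on ND and 197.5 on HFD and a ratio of 0.09 with an error of 0.29. Cry2 had 2340.5 and 14057 and a ratio of 0.11 with an error of 0.20. The gap between them, 1.30 in liver, was 0.02 here. Nr1d1 had 268 and 1434 with a ratio of 0.19 and an error of 0.21, and Nr1d2 had 219 and 1327.5 with a ratio of 0.43 and an error of 0.21.

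None of the 10 adipose members was 2-fold apart, on an array where 4.23% of genes passed 2-fold upward and 5.13% downward. Clock, Per1 and Nr1d2, 3 of the 10, exceeded 2 times their scanner error, a share of genes that was 31.3% over the whole array. With the software's own ratio, to which that error belongs, Npas2 (-0.64, error 0.28) and Per2 (0.59, error 0.23) also did. The share over the whole array was not computed for that ratio. The Per and Nr1d genes had a median of 0.19 and the activators one of -0.27, a gap of 0.45, which was 0.78 with the software's own ratio and 0.21 with median centring. Centring in place of loess moved the median of all adipose genes to 0.69 and the share of higher genes among those 2-fold apart from 45.1% to 87.2%. Under it Per1 came to 0.32 and Clock to 0.35, both positive but below that median, and Arntl (1.06), Cry2 (1.18) and Nr1d2 (1.19) passed 2-fold. Of all 14315 genes, 4208 were then at least 2-fold higher and 616 lower, so passing 2-fold was common on the array.

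The adipose pools also differed in genes of other tissues. Small intestine markers were at least 2-fold higher on HFD in all 14 measured of 15, with a median of 4.36 and a summed level of 31390 on ND and 702518 on HFD. Hepatocyte markers were lower in 13 of 15 (median -4.24, summed level 257322 and 60585), pancreas markers in 11 of 12 (median -1.94, 31289 and 6639), and male reproductive tract markers in all 7 measured of 10 (median -2.98, 86209 and 8656). Skeletal muscle markers were lower in 5 of 8 measured (median -1.48, 20128 and 6112). Adipocyte markers had a median of 0.31, with 1 of 15 at least 2-fold higher and 1 lower, and summed levels of 1352428 and 1317177. The part of these other tissues in the adipose clock values was not tested.

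Set side by side, the arrays differed most in Arntl. Of 12689 genes measured on both, 8 were members, and Arntl had a liver ratio below its adipose ratio by 2.18, 6.00 times the combined scanner error of 0.36. It was the 1 member of 8 whose ratios differed by more than 1, where 3.77% of all genes lay that far below and 4.45% that far above. Cry2 (0.98 above, combined error 0.30), Nr1d1 (0.93, error 0.31), Per1 (0.83, error 0.30), Per2 (0.69, error 0.34) and Nr1d2 (0.61, error 0.31) were higher in liver than in adipose by less than 1. Clock (0.16, error 0.30) and Cry1 (-0.31, error 0.40) differed by less than 1 error. The ratio had opposite signs on the arrays for Arntl, Per1 and Cry1. With local backgrounds as deposited, no member differed by more than 1: Arntl came to -0.84, Nr1d1 to 0.06, Nr1d2 to 0.01 and Per2 to -0.20, and Per1 then had the same sign on both arrays. With median centring Arntl (-2.64) alone kept opposite signs. Nr1d1 also differed by more than 1 with a normexp offset of 10 (1.05) and with the software's own ratio (1.16). Per3 did so (1.04) where dim probes were let in.

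**Figure D3:**
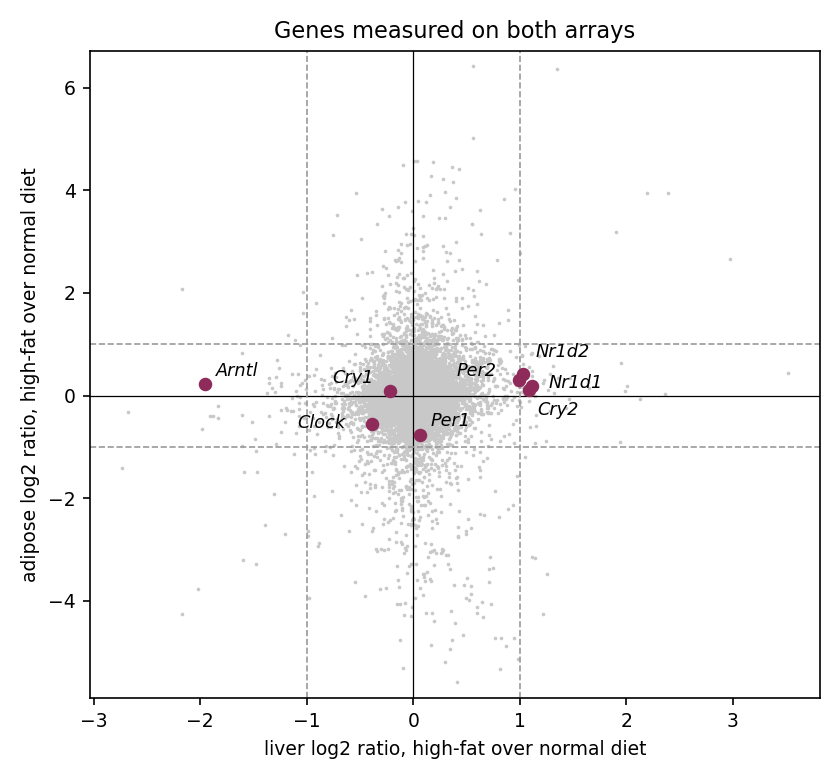
Each point is 1 of the 12689 genes measured on both arrays, placed by its liver log2 ratio (x axis) and its adipose log2 ratio (y axis), high-fat over normal diet, with dashed lines at 2-fold and the 8 core clock genes in colour. Arntl stands at the left, Per2, Cry2, Nr1d1 and Nr1d2 sit together at the right, and all 8 lie between the 2-fold lines of the adipose axis.

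The level of each gene in the 4 pools gives an order of the tissues. It depends on a scaling (Aquantile) that gave both arrays the same distribution of average intensity. Arntl was highest in the ND liver (10.35) and lowest in the HFD liver (8.40), with both adipose pools (9.23 and 9.45) between, so liver was above adipose by 1.12 on ND and below it by 1.05 on HFD. The Per1 level in liver minus that in adipose was -1.94 on ND and -1.11 on HFD. Nr1d2 was higher in liver by 0.77 on ND and 1.38 on HFD. For Cry2 the difference, liver minus adipose, was -1.24 on ND and -0.27 on HFD. Nr1d1 changed order, from -0.58 to 0.35, and Per3, not well above background in the ND liver, lay at 7.35 and 7.36 in the adipose pools and 7.80 in the HFD liver. The scanner error is that of the ratio within a spot, so the error of a level between arrays was not measured. The order of the tissues is therefore a description. Neighbouring levels, as the adipose pools of Per3 or of Cry2, are not ordered by these data.

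The other genes of the clock machinery were nearly level. Of 44 regulators listed beside the loop (kinases, ubiquitin ligases, cofactors, nuclear receptors and repressors), 40 were measured in liver, with a median of 0.02. Noct, a rhythmic phosphatase of nicotinamide dinucleotides, was the 1 at least 2-fold apart, at 1.03 with an error of 0.23, while 1.07% of all liver genes were 2-fold apart in either direction. Next to it in size, and named after their values were seen, were Nfil3, a repressor at the D-box, at -0.92 and Ciart at 0.83. Ciart, a repressor of the ARNTL complex, is also counted among the outputs below. In adipose, 38 were measured with a median of -0.04 and none was 2-fold apart, against 9.36% of all genes. The 4 furthest from equal were Noct (0.62), Nfil3 (-0.59), Timeless (0.57) and Rora (-0.54).

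Genes listed as clock outputs were spread more widely in liver. Of 20 outputs measured there, 5 were at least 2-fold higher on HFD and 2 lower, with a median of 0.57, where 0.491% of all measured liver genes were higher and 0.579% lower. With local backgrounds kept as deposited, the 7 became 3. This list, like the regulators, was chosen with earlier results of these data known, so the shares of all genes are no test of it. Dbp, an E-box target that encodes a D-box activator, had log2 levels of 10.51 and 14.03 and a ratio of 3.52 with an error of 0.28. Alas1, the first enzyme of haem synthesis, was at 1.65, Wee1, a kinase that holds back mitosis, at 1.46, Usp2, a ubiquitin protease, at 1.43, and Noct, also among the regulators, at 1.03. Lower were Tsc22d3 (-1.29), a glucocorticoid-induced gene, and Klf10 (-1.24), a Krüppel-like factor. In adipose, 19 outputs had a median of -0.07, Klf15 (-1.45) and Hlf (-1.11) were at least 2-fold lower, where 5.13% of all genes were, and Dbp was at 0.44. Median centring turned these 2 outputs past 2-fold into 7, while 4208 of all 14315 adipose genes were then higher and 616 lower.

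**Figure D4:**
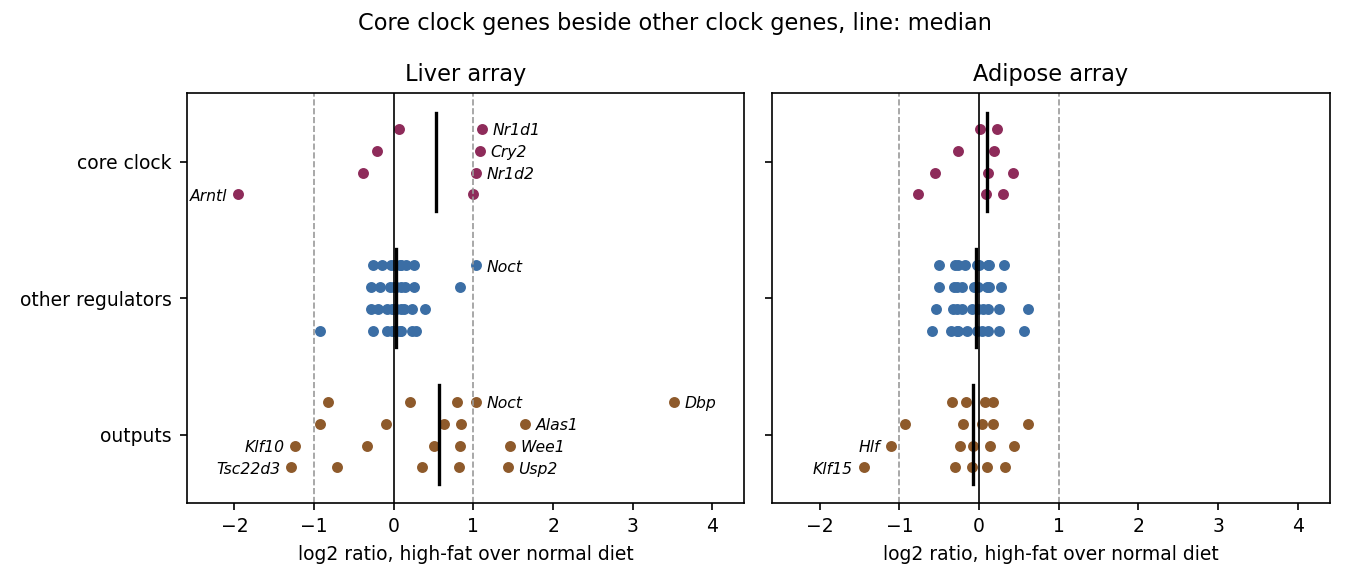
Log2 ratio, high-fat over normal diet (x axis), of the measured core clock genes, the other clock regulators and the clock outputs on the liver array (left) and the adipose array (right). Each point is 1 gene, spread vertically for legibility, a black line marks each list's median, dashed lines mark 2-fold, and genes past it are named. In liver the regulators crowd around their median of 0.02 while the core genes and outputs spread from -1.95 to 3.52.

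The genes closest to each 2-fold member were sought in the plane of the 2 ratios, by the distance between points over the 2 arrays. Genes with placeholder symbols, such as Gm or LOC numbers or names ending in Rik, were left out of the search and the counts. No gene so searched lay within 0.25 of Arntl. Its nearest were Cyp2b10, a drug-metabolizing cytochrome P450, at a distance of 0.43, Cox6a2, a cytochrome oxidase subunit of heart and skeletal muscle, at 0.60, and Chka, a choline kinase, at 0.61. Cry2 had 25 genes within 0.25 (nearest Stap1, Cep70 and Derl3), Nr1d1 had 21 (nearest Afdn, Cep70 and Cry2) and Nr1d2 had 17 (nearest Kiss1, Smtnl2 and Rhbg). Cry2 was thus 1 of the 3 nearest genes to Nr1d1, at a distance of 0.08. With 2 points per gene, nearness is a description of these arrays.

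**Figure D5:**
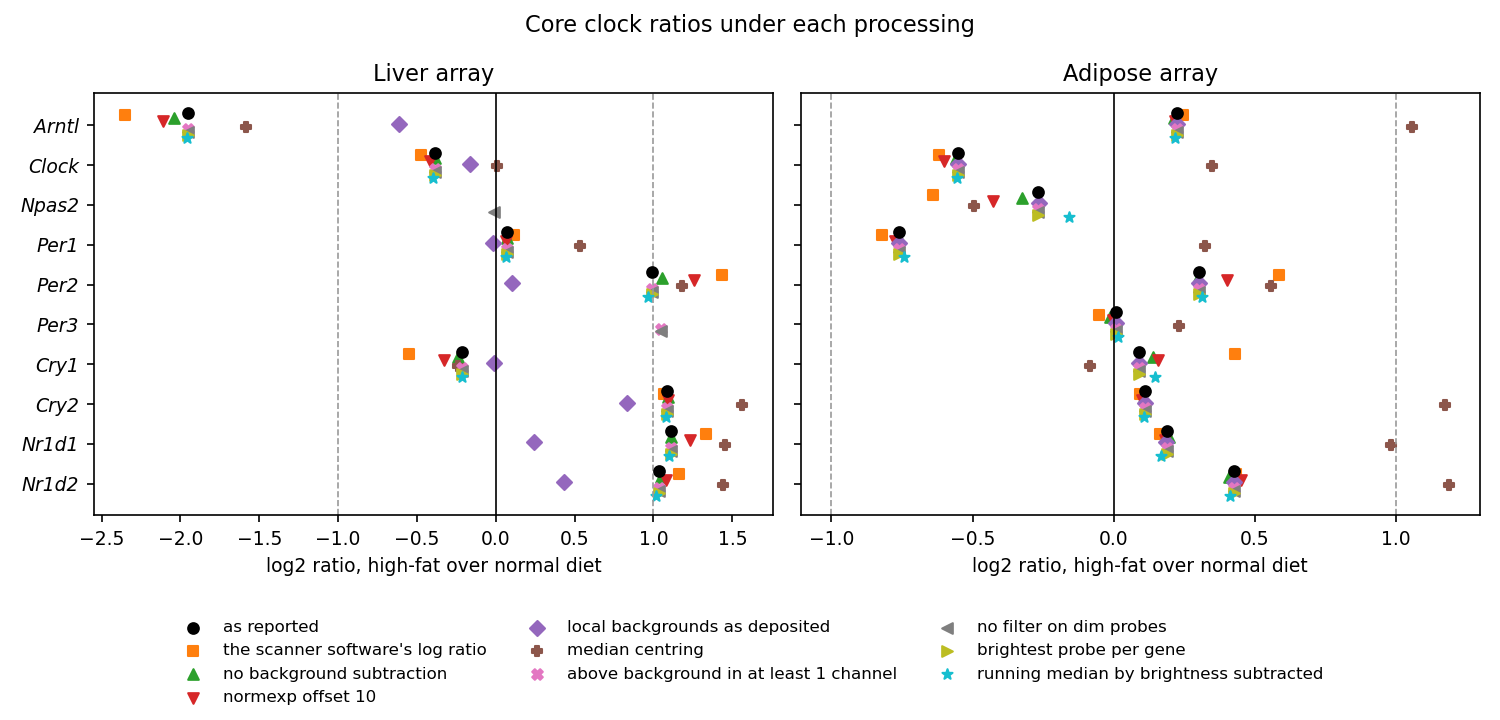
Log2 ratio, high-fat over normal diet (x axis), of each core clock gene on the liver array (left) and the adipose array (right) as reported (black circles) and under 9 other ways of computing it (coloured symbols), with dashed lines at 2-fold. In liver, the diamonds for unreplaced local backgrounds pull every called member inside the lines. In adipose, the plus signs for median centring move Clock and Per1 above 0.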

How the data were processed

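Total RNA pools were hybridised to 2 two-colour Agilent arrays. Per the file headers, the deposited scanner files came from Feature Extraction 11.5.1.1 (protocol GE2_1105_Oct12, build mm9), whereas version 8.5.1.1 is given in the submitters' processing notes. They hold median signal and local background intensities per spot, a log10 ratio with its error and p-value from the authors' software (the p-value was not used), and flags and other spot marks as deposited.

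From these intensities, ratios were computed with limma 3.58.1 in R 4.3.3. Local backgrounds marked as outliers were replaced by the array and channel median, the background was corrected by normexp (offset 50), and loess was fitted within each array, control spots having weight 0. Channel levels were scaled by Aquantile. Spots marked as outliers were dropped, spots of a probe and probes of a gene averaged as log2 values, and a gene counted as measured where its probes were well above background in both channels. The scanner error is the software's log10 error of its own ratio, turned to log2, and not an error of the limma ratio. Over probes with at least 5 spots, the median SD between spots was 0.05 on each array. For 2 probes of a gene the median gap was 0.13 in liver and 0.20 in adipose.

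Of 39429 probes, 27508 were matched to a symbol through RefSeq transcript accessions (GRCm38.p6). The members and gene lists were chosen with earlier results of these data known. All members are named. From the regulator and output lists, genes at least 2-fold apart are named, otherwise the 4 with the largest ratio, and for each 2-fold member its 3 nearest genes. The 11 alternatives changed the background, offset, centring, trend, filter, probe choice, threshold or the software's own ratio. The number of arrays limits the precision.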

Additional observations from a re-analysis of the deposited data

Results flagged for a closer look

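These genes had log2 ratios (HFD over ND) of opposite sign on the 2 arrays, with 1 array per tissue, and the difference between the tissues was not tested. Among the core clock genes, Arntl was at -1.95 in liver and 0.22 in adipose, a difference (liver minus adipose) of -2.18 with a combined scanner error of 0.36. Per1 was at 0.07 and -0.76, a difference of 0.83 with an error of 0.30, and its liver ratio was within 1 scanner error of 0. Its signs, and those of Cry1, were no longer opposite with median centring. Cry1 was at -0.22 and 0.09, a difference of -0.31 with an error of 0.40. Among the clock outputs at least 2-fold apart on 1 array, Usp2 differed by 1.67 (1.43 and -0.24) and Wee1 by 1.53 (1.46 and -0.07). Hlf differed by 1.46 (0.35 and -1.11) and Klf10 by -1.42 (-1.24 and 0.18). Both values of Cry1, and the adipose values of Wee1 and Klf10, were within 1 scanner error of 0. Outputs of opposite sign but short of 2-fold on both arrays, as Insig2 (-0.92 and 0.10), are not listed.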

How the results depend on the processing

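Of 106 recomputed summary values, 88 kept within the set limits and 18 moved. Of 162 recomputed member ratios, 8 changed sign: Per1 in liver with deposited backgrounds (-0.02), Clock in liver (0.01) and Clock (0.35), Per1 (0.32) and Cry1 (-0.08) in adipose with median centring, and Per3 in adipose with the software's ratio (-0.05), no background subtraction (-0.01) and offset 10 (-0.0021). The 162 include ratios under looser filters and the brightest-probe choice, which could not move because each member has 1 spot. In liver, the count of regulators 2-fold apart went from 1 to 2 with the software's ratio or with offset 10, to 0 with local backgrounds as deposited and to 3 at 1.5-fold. Over all liver genes, 138 were 2-fold higher and 157 lower with the software's ratio, and 97 and 102 with offset 10, against 67 and 79. The gap between the Per and Nr1d median and the activator median went from 2.18 to 2.66 with the software's ratio, 0.56 with deposited backgrounds and 1.42 with no filter on dim probes, where Npas2 and Per3 enter. With deposited backgrounds 0 members were higher and 0 lower, and the outputs 2-fold apart went from 7 to 3. At 1.5-fold the outputs numbered 15, but the share of all liver genes past 1.5-fold was not computed. In adipose, that gap went from 0.45 to 0.78 with the software's ratio and 0.21 with median centring. Median centring gave 3 members, 4 regulators and 7 outputs 2-fold apart, against 0, 0 and 2. Of all 14315 adipose genes, 4208 were then higher and 616 lower, so the whole array moved. At 1.5-fold the members, regulators and outputs apart were 1, 2 and 4, the member being Per1, with no share of all adipose genes computed. The cause was not tested. No paired analysis was possible because each tissue has 1 array and the tissues share only 1 replicate number. In liver, Npas2 was not well above background in either pool and Per3 in the ND pool, so neither was counted as measured.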
